A study of Mus musculus with 10 samples.

Results

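The H3K18La response of mouse retinal explants to glucose was described locus by locus, a locus being all peaks that the deposited annotation assigns to 1 gene symbol. Of the 10 libraries in the series, 6 were H3K18La libraries, 3 from explants kept in 5 mM glucose and 3 from explants kept in 25 mM glucose. Peaks were collapsed by symbol alone, which turned 108253 peaks into 25400 loci, and the 10374 loci with a mean of at least 3 RPM (reads per 1000000 reads of the library) over the 6 libraries were tested. All explants were wild-type C57BL/6J retinas taken at postnatal day 28 without the retinal pigment epithelium, cultured for 48 h in Neurobasal-A, dissociated and assayed as 500000 cells by CUT&Tag, in 1 batch. The other 4 libraries, 2 at each glucose level, measured H3K27Ac in the same system and were used here to rank loci. A retina is a mixture of cell types dominated by rods, and for bulk libraries fewer cells of a type and less signal per cell cannot be told apart. The labels call the replicates biological and tie none of them to an animal, so that p-values measure the spread between these libraries.

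Lysine lactylation is a histone modification that uses lactate, the end product of glycolysis, as its source, and H3K18La is found at active promoters, where it overlaps the acetylation mark H3K27Ac, as well as in gene bodies and at enhancers. Photoreceptors convert most of their glucose to lactate even with oxygen present. Their identity is set by the transcription factors CRX, OTX2, NRL and NR2E3, and CRX and OTX2 recognise DNA sites with the core TAATCC. In CUT&Tag a transposase tethered by the antibody cuts next to the modified nucleosome, so reads in peaks count cuts near the mark.

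Reads in peaks rose throughout the genome, and everything below was read against that rise. They made up 12.01%, 11.90% and 11.81% of the reads behind the deposited RPKM in replicates 1 to 3 at 5 mM, and 34.97%, 31.61% and 31.17% at 25 mM. The study describes its other peak values as scaled to mapped reads, which is not stated for these values, so the percents and RPM may be relative to another total. The groups did not overlap, and the means differed 2.74-fold (exact two-sided permutation test, p = 0.1, the smallest that 3 against 3 libraries allows). Library denominators ran from 1358008 to 5182766 reads, and reads in peaks from 160437 to 616758 at 5 mM and from 687411 to 1285086 at 25 mM. At the level of single loci, 8362 of 10374 (80.6%) rose in RPM and 0 fell (limma, Benjamini-Hochberg adjusted p under 0.05), with a median log2 change of 1.24. With libraries centred on the median locus 1579 loci were higher and 220 lower, and without the filter on low loci 8112 and 54. Replicate 1 at 25 mM stood apart from the other 5 libraries, with 23.2% of its reads in peaks at promoters against 18.02% to 20.7% in the rest. In the H3K27Ac libraries reads in peaks rose as well, from 21.12% and 31.53% at 5 mM to 69.46% and 56.47% at 25 mM. The library-wide rise was therefore not particular to H3K18La.

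**Figure D1:**
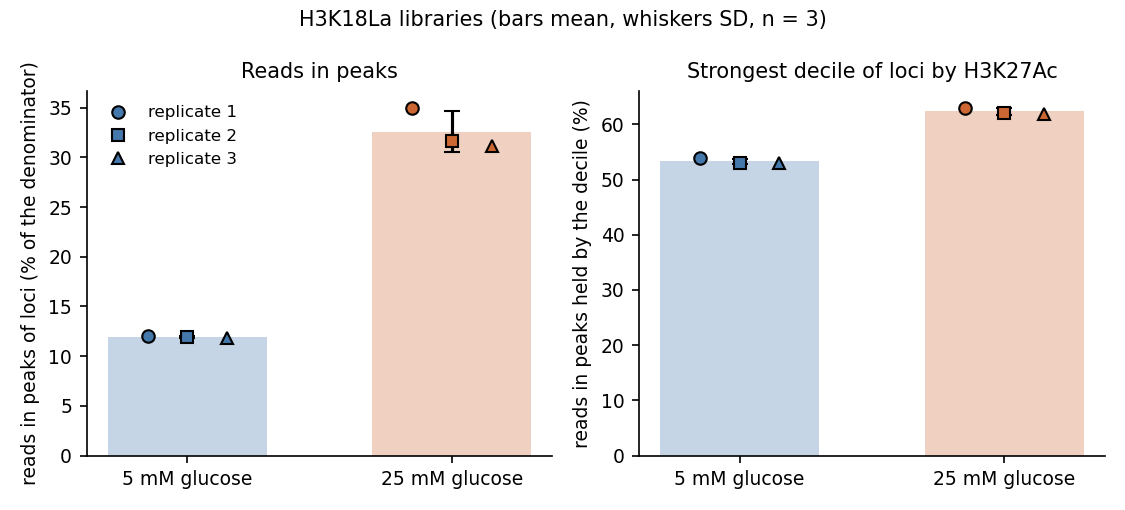
Left, reads in peaks of loci as a percent of the denominator behind the RPKM for each H3K18La library. Right, the percent of reads in peaks held by the 2540 loci strongest in H3K27Ac. Points are libraries, bars are means and whiskers are SD (n = 3). The 5 mM libraries lie at 11.81% to 12.01% and the 25 mM libraries at 31.17% to 34.97%, and the strongest decile holds 53.3% at 5 mM and 62.3% at 25 mM.

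To find loci that gained more or less than the library-wide rise, each locus was expressed as its share, in reads per 1000000 reads in peaks of the same library. A share that is lower at 25 mM means a smaller part of a larger total and not fewer reads. By this measure 496 loci (4.78%) had a higher share at 25 mM and 508 (4.90%) a lower one, of 10374 tested by limma with Benjamini-Hochberg adjustment. The median log2 change of share was -0.11, and 42.2% of tested loci had a change above 0. The filter on the mean level admitted 2664 loci (25.7%) that were under 3 RPM at 5 mM and passed through their 25 mM level. When the libraries were centred on the median locus instead, 1340 loci were higher and 170 lower, so the balance of the directions depends on the scaling. All 496 loci with a higher share were also called higher after that centring, and 170 of the 508 with a lower share were called lower. The count of 1004 loci in both directions was 446 without 25 mM replicate 1, 267 without 25 mM replicate 2, 598 without 25 mM replicate 3, 418 without 5 mM replicate 2, 963 without 5 mM replicate 1 and 820 without 5 mM replicate 3.

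Photoreceptor genes and genes of other roles were among the loci that gained most. Among the loci with a mean of at least 10 RPM, 39.4% of 4489 had shares that did not overlap between the glucose levels. The 12 of these that gained most included Nrl, Crx and Neurod1, which encode photoreceptor transcription factors, Aipl1, a chaperone of the rod phosphodiesterase, Unc119, a carrier of acylated transducin, and Mpp4, a scaffold protein of the photoreceptor terminal. They also included Mir124a-1hg, the host transcript of the neuronal microRNA miR-124, Bckdha, a subunit of the branched-chain ketoacid dehydrogenase, Pik3ap1, an adaptor of phosphoinositide 3-kinase, Adgrg3, an adhesion G protein-coupled receptor, the histone gene H2bl1, and Ube4bos1. Of these 12, 11 passed the test and Adgrg3 did not (log2 change 1.49, adjusted p = 0.089 by limma). Their level at 5 mM was 2.77 to 7.66 RPM, so all 12 reached the minimum of 10 RPM through the 25 mM libraries, and the size of their gains is partly fixed by that rule. At 2 of the 12 the 5 mM level was under the 3 RPM required for the test. Those 2 were tested only because of their 25 mM level, and their changes are a description. Without 5 mM replicate 3 the change at Adgrg3 was 0.48. Bckdha passed in 1 of the 6 fits that left out 1 library, with an adjusted p of up to 0.186 by limma. Mir124a-1hg and Ube4bos1 did not pass without 25 mM replicate 1 (adjusted p = 0.0518 and 0.0639 by limma).

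Stretches of promoter sequence show the letters that several of these loci share. RefSeq promoters on build GRCm38.p6 were found for 10 of the 12 loci, and 4 of them (Aipl1, Crx, Mpp4 and Unc119) held TAATCC on either strand within the 250 bases before a start. Windows of 30 bases, in the gene's own direction with the motif in capitals, are shown because the same 6 letters recur at the loci with the largest gains. Each of these promoters overlaps a peak of the same locus. GGATTA is TAATCC read on the other strand.
Aipl1, chr11:72037545-72037574, minus strand: tcccctctggtgGGATTAtctaggcttgca
Crx, chr7:15879959-15879988, minus strand: ccaccttccctgGGATTAcccttccagatc
Crx, chr7:15880032-15880061, minus strand: gtgggggtggtgGGATTAagcagacggtgc
Mpp4, chr1:59161642-59161671, minus strand: cctgcaagggcaGGATTAtgccaaagagga
Neurod1 had no TAATCC in its window, and held 4 GC boxes (GGGCGG on either strand), of which the one nearest to the start is shown for contrast.
Neurod1, chr2:79456679-79456708, minus strand: cagctcacggccCCGCCCgcgctcagcatc
Among promoters of all tested loci with a RefSeq entry, 6.20% of 8643 held TAATCC and 50.4% held GGGCGG. Among promoters of loci with a higher share at 25 mM the values were 11.1% and 47.2% of 407, and among promoters of loci with a lower share 5.57% and 48.9% of 413. Among promoters of the decile of tested loci strongest in H3K27Ac, 6.96% of 1150 held TAATCC. These percents count promoters, whereas the 4 of 10 above counts loci, some of which have several promoters, so they are not like for like. A match describes these letters only and is not evidence of binding.

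At Nrl, the leucine zipper factor that directs rod fate (3 peaks on chromosome 14 between 55520564 and 55527194), the share was 31.6, 56.7 and 24.9 reads per 1000000 reads in peaks at 5 mM and 160.0, 90.3 and 87.6 at 25 mM. All 25 mM libraries lay above all 5 mM libraries, and the share rose by 1.55 on the log2 scale (SE 0.30, adjusted p = 0.00689 by limma). Between 4 and 35 reads per library stood behind the 5 mM values and 81 to 116 behind those at 25 mM, so the low end is imprecise by counting alone. Aipl1 (2 peaks on chromosome 11 between 72031333 and 72038179) had shares of 31.6, 47.0 and 31.2 at 5 mM and 128.0, 90.3 and 94.1 at 25 mM. The change was 1.47 (SE 0.25, adjusted p = 0.00377 by limma), and it passed without any 1 of the 6 libraries. In RPM, Aipl1 went from 4.36 ± 1.1 to 34.2 ± 9.2 (SD, n = 3).

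Crx, the homeodomain factor of rods and cones, had shares of 63.2, 42.2 and 24.9 at 5 mM and 149.8, 88.7 and 74.6 at 25 mM. Its log2 change of 1.26 (SE 0.31, adjusted p = 0.0231 by limma) passed in 3 of the 6 fits that left out 1 library, and without 25 mM replicate 1 it was 0.97 with an adjusted p of 0.103 by limma. Without its distal intergenic peaks the change at Crx was 0.73 (adjusted p = 0.243 by limma). Neurod1, a basic helix-loop-helix factor of photoreceptors and amacrine cells, had shares of 39.5, 27.6 and 24.9 at 5 mM and 129.5, 69.3 and 63.8 at 25 mM. Its log2 change was 1.41 (SE 0.29, adjusted p = 0.00915 by limma), and 1.09 with an adjusted p of 0.0501 by limma without that library. Unc119 ran from 31.2 to 32.4 at 5 mM and from 58.4 to 160.0 at 25 mM, with the highest value in replicate 1, and rose by 1.49 on the log2 scale (adjusted p = 0.00859 by limma). In Mpp4 nearly all of the signal was at promoter peaks, which went from 6.7 to 48 RPM, whereas in Mir124a-1hg peaks outside the promoter carried 51 of 57.3 RPM at 25 mM.

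**Figure D2:**
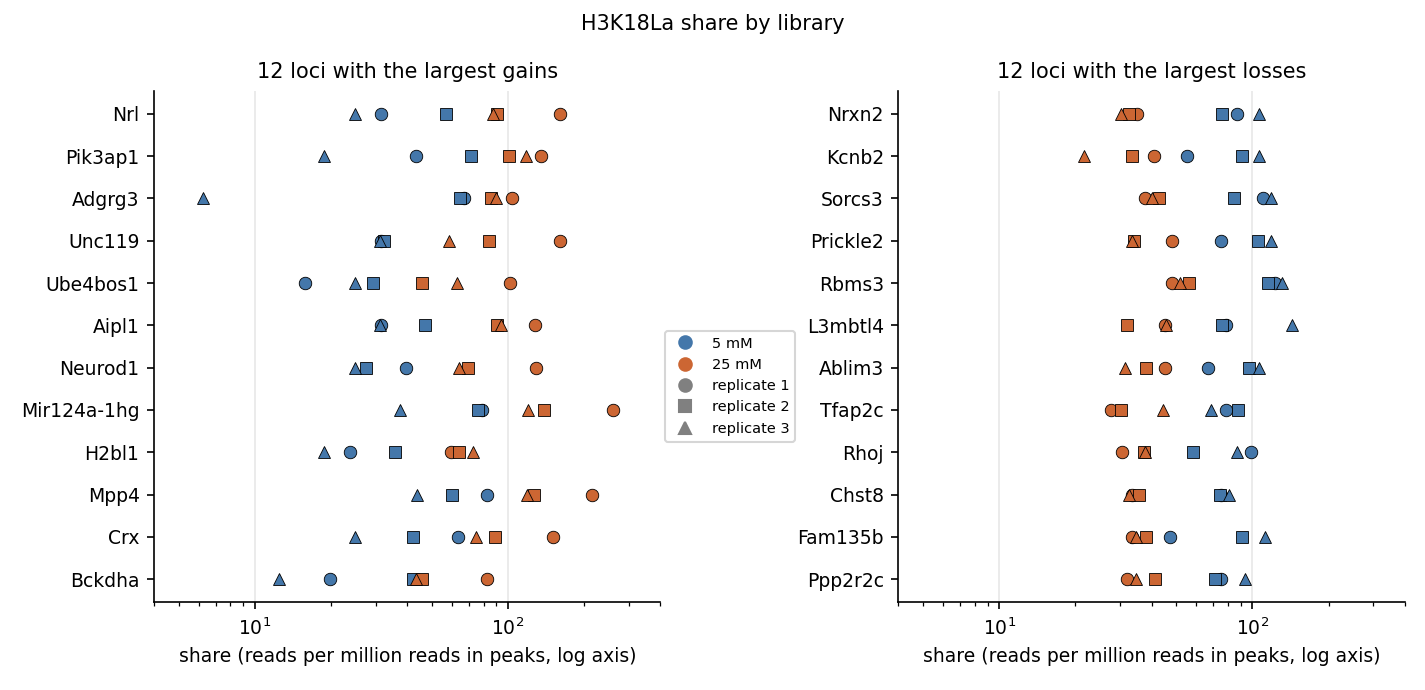
Share of each H3K18La library (reads per 1000000 reads in peaks, log axis) at the 12 loci with the largest gains and the 12 with the largest losses of share. Blue is 5 mM and orange 25 mM, with 1 marker shape per replicate. The groups do not overlap at any of the 24 loci, which is how they were chosen, and replicate 1 at 25 mM is the highest library at most of the gaining loci.

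The loci with the smallest gains had varied roles. The 12 loci that lost most share were Nrxn2, a presynaptic neurexin, Kcnb2, a voltage-gated potassium channel, Sorcs3, a neuronal sorting receptor, Prickle2, a planar polarity protein, Rbms3, L3mbtl4, Ablim3, an actin-binding protein, Tfap2c, an AP-2 transcription factor, Rhoj, an endothelial small GTPase, Chst8, a sulfotransferase, Fam135b and Ppp2r2c, a brain subunit of protein phosphatase 2A. All 12 passed the test. With 1 library left out at a time, Fam135b passed in 1 of 6 fits (adjusted p of up to 0.0983 by limma), Tfap2c in 4, and Kcnb2 and L3mbtl4 in 5. At Nrxn2 (14 peaks on chromosome 19 between 6417991 and 6538735) the share was 86.9, 76.2 and 106.0 at 5 mM and 34.9, 32.7 and 30.3 at 25 mM. The groups lay far apart, with a log2 change of -1.39 (SE 0.24, adjusted p = 0.00388 by limma), while its RPM were 10.7 ± 1.7 at 5 mM and 10.7 ± 1.4 at 25 mM (SD, n = 3).

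RPM values stayed close to level at the other loci of this group as well, with log2 changes from 0.00 at Nrxn2 to 0.29 at Ppp2r2c and the smallest adjusted p was 0.269 by limma. Sorcs3, with 29 peaks, had shares of 110.6, 84.3 and 118.4 at 5 mM and 37.8, 42.8 and 40.0 at 25 mM. Rbms3, which encodes an RNA-binding protein and has 37 peaks, had shares of 122.4, 115.1 and 130.9 at 5 mM and 48.0, 56.0 and 51.9 at 25 mM. The loci that lost most share had between 10 and 37 peaks, and those that gained most had between 1 and 9. Of the 7 loci of the losing group with a RefSeq promoter, 1 (Prickle2) held TAATCC.

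Gain was larger at loci with more H3K27Ac, taken as the mean level over the H3K27Ac libraries of both glucose levels. Reads in peaks of those libraries were 21.12% and 31.53% at 5 mM and 69.46% and 56.47% at 25 mM. The 25 mM libraries therefore weigh more in that mean, which is not a level from before the change of glucose. A ranking by the 5 mM H3K27Ac libraries alone was not tested. The 2540 loci strongest in H3K27Ac held 53.9%, 53.0% and 52.9% of H3K18La reads in peaks at 5 mM and 63.0%, 62.1% and 61.9% at 25 mM. The groups did not overlap, and the means differed by 9.05 percentage points (exact two-sided permutation test, p = 0.1, the smallest that 3 against 3 libraries allows). With loci ranked by their number of peaks the difference was 3.21 percentage points. Among tested loci, the weakest decile in H3K27Ac had a median change of share of -0.53 on the log2 scale and a median rise of 1.69-fold in RPM. In the strongest decile these were 0.33 and 3.38-fold, and that decile held 331 of the 496 loci with a higher share. Per kilobase of peak the spread was wider, from a median of -0.69 and 1.55-fold in the weakest decile to 0.40 and 3.39-fold in the strongest. In the weakest decile per kilobase 203 of 1038 loci had a lower share and 0 a higher one, and in the strongest 1 was lower and 200 were higher. Removing this trend on the H3K27Ac level from each library left 61 loci (0.588%) with a higher and 87 (0.839%) with a lower share, of which 53 and 59 were also called before. Among the 12 loci with the largest gains, Crx, Mpp4, Mir124a-1hg and Bckdha no longer passed (adjusted p of 0.0522 to 0.117 by limma). Their log2 changes were 1.00 to 1.08 with the trend removed and 1.24 to 1.39 before. Among the 12 with the largest losses, Nrxn2, Sorcs3, Prickle2 and Rbms3 still passed and the other 8 did not (adjusted p of 0.0605 to 0.101 by limma). Over all 508 loci with a lower share the median change was -1.04 before removal of the trend and -0.76 after it. Over the 496 with a higher share these medians were 0.65 and 0.39. The percent of reads in peaks moved with glucose as well, and its part in this trend was not tested.

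**Figure D3:**
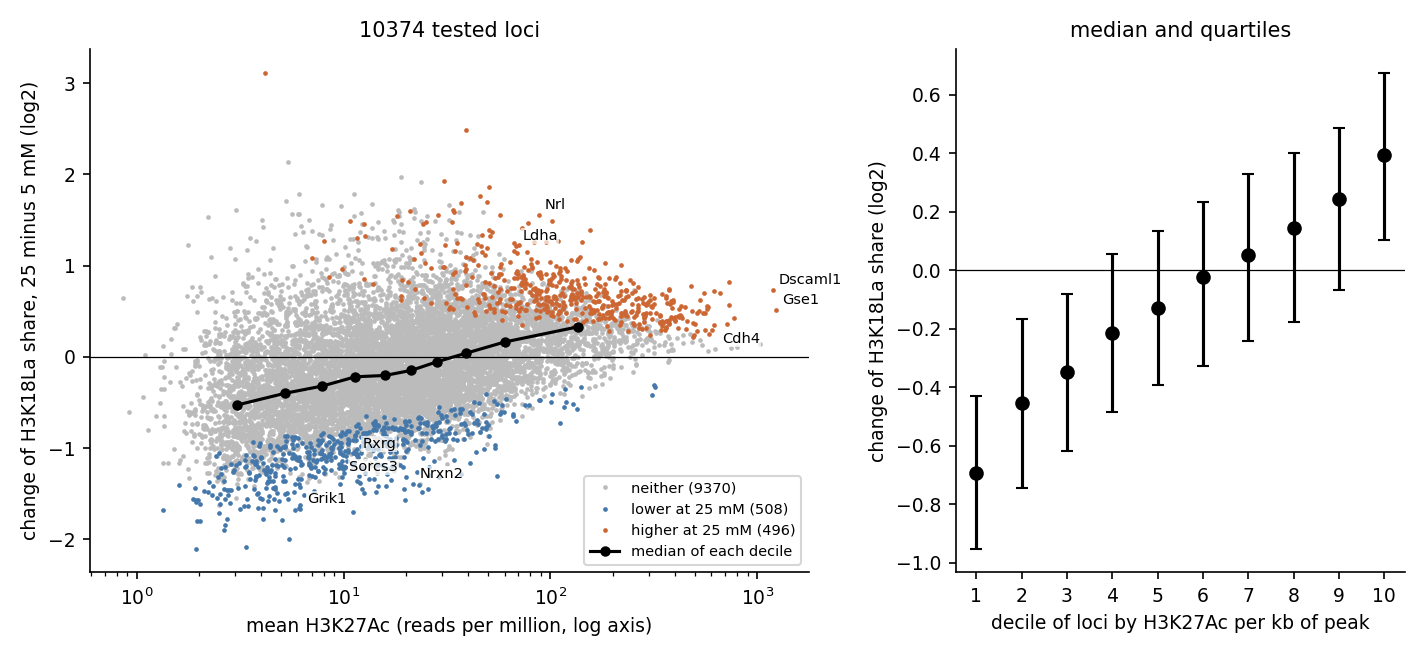
Left, change of H3K18La share (log2, 25 mM minus 5 mM) against the mean H3K27Ac level of each tested locus (RPM, log axis), with loci past the adjusted p threshold in colour and the median of each decile in black. Right, median and quartiles of the change by decile of H3K27Ac per kilobase of peak. The medians climb from -0.53 to 0.33 on the left and from -0.69 to 0.40 on the right.

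The number of peaks and their place also bore on the gain. Loci with a single peak had a median change of share of 0.19, those with 5 to 9 peaks -0.21 and those with 30 or more 0.01. Only 950 of the 9932 loci with 1 peak were tested, at a median level of 4.50 RPM, close to the minimum of 3 RPM. Weak loci can pass that minimum through their 25 mM level, so the median of 0.19 is partly set by the filter. Loci of 30 or more peaks were called most often in both directions, 72 higher and 50 lower of 365. Loci with a peak in the promoter, from -1000 to 500 bases around a start, had a median of -0.08, and loci without one -0.17. With promoter peaks alone 72 of 3977 loci had a higher share and 0 a lower one. The 150 loci of chromosome X had a median of 0.20 against -0.11 for autosomal loci, with 5 higher (3.33%) and 0 lower. Of autosomal loci 4.80% were higher and 4.97% lower, so higher calls were no more frequent on X. By decile of GC content the medians lay between -0.15 and -0.02.

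Genes of the rod phototransduction cascade had higher shares at 25 mM. Of 21 genes on the list, 20 had a locus that was tested, all 20 had a log2 change of share above 0, 6 rose and 0 fell, and the median was 0.58. Over all tested loci 42.2% were above 0, 4.78% rose and 4.90% fell, and the median was -0.11. The median H3K27Ac level of the rod list was 73.8 RPM, and in the H3K27Ac decile from 47.6 to 84.1 RPM 9.06% of loci rose. The filter removed none of the 20 loci with a peak, and 2 of them were under 3 RPM at 5 mM. With the H3K27Ac trend removed the median was 0.40 against 0.02 and no member passed. In RPM all 20 rose. Gnat1, the rod transducin alpha subunit, changed most in the list, from 11.8, 17.8 and 6.23 to 74.2, 37.4 and 23.8 (log2 change 1.70, SE 0.43, adjusted p = 0.0246 by limma), on 1 to 11 reads at 5 mM. Its level was 1.43 RPM at 5 mM and 15.1 at 25 mM, so that it was tested only because of its 25 mM level, and its change is a description. The members that rose also included Pde6g, the inhibitory phosphodiesterase subunit (0.99), Rcvrn, the calcium sensor recoverin (0.89), Slc24a1, the rod sodium-calcium-potassium exchanger (0.81), and Grk1, a receptor kinase of photoreceptors (0.66). With 1 library left out at a time Pde6g passed in 0 of 6 fits, Grk1 in 2 and Rcvrn and Slc24a1 in 4. Cngb1, a subunit of the rod cyclic nucleotide-gated channel, had the smallest change in the list, 0.13 (adjusted p = 0.781 by limma).

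Photoreceptor transcription factors and outer segment genes showed the same direction with exceptions. Of 15 transcription factors 7 rose, 1 fell and 7 did not pass, with a median of 0.57, beside 4.78% higher and 4.90% lower over all tested loci. The median H3K27Ac level of this list was 112.5 RPM. In the decile of tested loci strongest in H3K27Ac, from 84.2 RPM up, 31.9% had a higher share and 1.35% a lower one. Beside Nrl, Crx and Neurod1 the factors that rose were Nr2e3, the rod factor that represses cone genes (1.03), Casz1, a zinc finger protein (0.82), Esrrb, an orphan nuclear receptor (0.70), and Prdm1, which holds precursors to the photoreceptor fate (0.57). Casz1 was one of the strongest H3K18La loci, with shares of 987.1, 822.0 and 922.5 at 5 mM and 1953.7, 1497.2 and 1413.6 at 25 mM (log2 change 0.82, SE 0.10, adjusted p = 0.000434 by limma). The change at Otx2 was 0.36 and did not pass (adjusted p = 0.254 by limma). Rxrg, a nuclear receptor of cones, went the other way, from 94.8, 100.5 and 87.3 to 37.8, 45.9 and 48.7 (log2 change -1.07, SE 0.22, adjusted p = 0.00945 by limma), and with the H3K27Ac trend removed it did not pass (-0.81, adjusted p = 0.0699 by limma). Thrb, the thyroid hormone receptor of cones, had a change of 0.08 (adjusted p = 0.538 by limma).

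Of the 19 outer segment and matrix loci tested, 10 rose and 0 fell, with a median of 0.66, beside the same 4.78% and 4.90%. The median H3K27Ac level of the outer segment list was 99.9 RPM, within the strongest decile, of which 31.9% was higher. Over all 21 loci of the list with a peak, the weak ones included, the median was 0.57. With the H3K27Ac trend removed the medians were 0.37 with 2 outer segment loci higher and 0.25 with 2 transcription factors higher. Rp1, the axonemal protein of the outer segment, had shares of 177.7, 191.3 and 124.7 at 5 mM and 378.2, 315.9 and 312.6 at 25 mM. The change was 1.04 (SE 0.17, adjusted p = 0.00282 by limma) and passed without any 1 of the libraries. Prom1, a membrane protein of outer segment discs, rose by 0.72 and Tulp1, a transport protein of the inner segment, by 0.68. Rp1l1 rose by 0.57, and Cdhr1, Rdh8, Prph2 and Arl3 by 0.66 to 0.85. Pde6d had the lowest value, -0.20 (adjusted p = 0.686 by limma). Cone phototransduction gave 1 rise of 9 tested loci, Gnb3, the cone transducin beta subunit (1.00, adjusted p = 0.0267 by limma), with a median of 0.16. Of 19 ribbon synapse loci 2 rose, Cplx4 (0.65) and Egflam (0.49), and Rims1, an active zone protein, fell by 1.10 on the log2 scale, with a median of 0.34, or 0.13 without 25 mM replicate 1 and 0.14 with the trend removed. With 1 library left out, Gnb3 passed in 2 of 6 fits, Cplx4 and Rims1 in 1 and Egflam in 5. No locus of the cilium and BBSome list passed in 18 tested by limma, with a median of 0.19, and 9 of the 18 were under 3 RPM at 5 mM. Without 5 mM replicate 1 the median was 0.00 with 3 higher. A list of 9 genes that the study names from RNA-seq of explants at these glucose levels had a median of 1.04 with 5 higher and 0 lower. Without 25 mM replicate 1 the median was 0.78 with 3 higher, and with the H3K27Ac trend removed 2 were higher. The list was chosen for a response to glucose, which is no independent evidence of its direction here. Except for Crxos, its members also stand in the lists above, so most of its higher loci were already counted there. Impg1 (0.46), Impg2 (0.86), Gucy2f (0.47) and Arl6 (1.13) did not pass (adjusted p of 0.0636 to 0.503 by limma).

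The share that whole lists held moved with the libraries, and replicate 1 at 25 mM was the highest in the rod, outer segment, transcription factor and ribbon synapse lists. In the cone list replicate 3 at 25 mM was highest, with 0.0437% to 0.0483% at 25 mM and 0.0349% to 0.0415% at 5 mM. Rod phototransduction loci held 0.14% to 0.173% of reads in peaks at 5 mM and 0.206% to 0.322% at 25 mM, and outer segment loci 0.205% to 0.237% and 0.297% to 0.402%. Without 25 mM replicate 1 the median change of the rod list was 0.46 with 1 of 20 loci higher, that of the transcription factors 0.40 with 4 higher and 1 lower, and that of the outer segment list 0.49 with 5 higher, beside -0.09 over all loci. Loci higher in these 3 lists numbered 2, 6 and 6 without 25 mM replicate 2, and 2, 5 and 4 without 5 mM replicate 2. The part that the higher promoter share of that library plays in these values was not tested. Summed shares of markers of other retinal cells went in both directions, while the counts of called loci, at most 1 per list, are near the 4.78% higher and 4.90% lower over all tested loci, whose median was -0.11. Ganglion cell loci held 0.0908% to 0.105% of reads in peaks at 5 mM and 0.121% to 0.127% at 25 mM, and amacrine cell loci 0.143% to 0.158% and 0.167% to 0.173%, higher at 25 mM without overlap in both lists. Müller glia loci had a median of -0.23 with 0 of 12 higher, and held 0.102% to 0.115% at 5 mM and 0.0887% to 0.0966% at 25 mM. Dkk3, a Wnt modulator of Müller cells, fell by 0.93 on the log2 scale and passed in 2 of 6 fits that left out 1 library. Bipolar cell loci had a median of -0.44 with Grik1, a kainate receptor of OFF bipolar cells, lower by 1.67 on the log2 scale (adjusted p = 0.0107 by limma). That call was lost without 5 mM replicate 2. The summed share of bipolar cell loci overlapped between the glucose levels, at 0.157% to 0.161% and 0.141% to 0.170%. Vascular loci had a median of -0.61, and Erg, an endothelial transcription factor, was lower in the fit of all libraries (adjusted p = 0.0486 by limma) and in 0 of 6 fits that left out 1. They held 0.0324% to 0.0363% at 5 mM and 0.0196% to 0.0226% at 25 mM. Microglia loci had a median of -0.19 with Csf1r, the receptor of colony-stimulating factor, lower among 7 tested, a call kept in 1 of those 6 fits, and held 0.0373% to 0.0455% at 5 mM and 0.0257% to 0.0382% at 25 mM, which overlapped. Of the amacrine and ganglion cell lists the 2 loci that passed rose, Ebf3 (0.42) and Opn4, the gene of melanopsin (0.69), and the medians were -0.23 and 0.11. The retinal pigment epithelium list, from a tissue that had been removed, had 5 tested loci with a median of 0.09, or -0.15 over all 9 with a peak, and Mitf lower, a call lost in each of the 3 fits that lacked a 25 mM library, and horizontal cells had 1 tested locus, Onecut2, at -0.50 (adjusted p = 0.528 by limma). Whether the makeup of cells differed between the glucose levels was not tested.

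**Figure D4:**
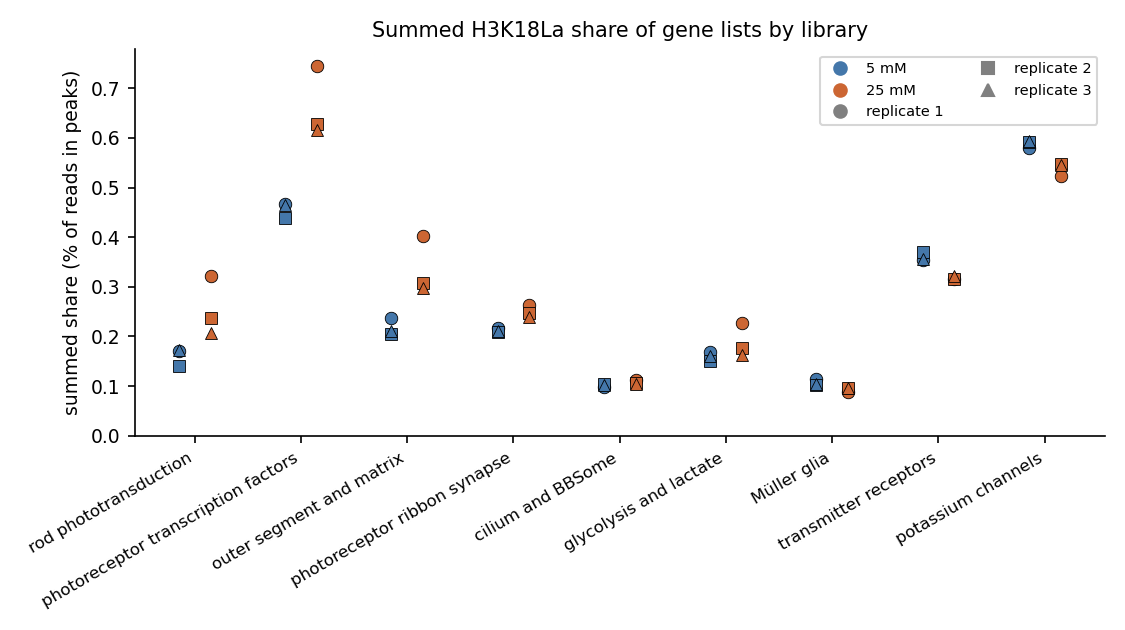
Summed H3K18La share (% of reads in peaks) of 9 gene lists in each library, with 5 mM in blue, 25 mM in orange and 1 marker shape per replicate. For rod phototransduction all 25 mM libraries, at 0.206% to 0.322%, lie above all 5 mM libraries, at 0.14% to 0.173%, and for Müller glia all lie below.

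Glycolysis and lactate genes gained little beyond the library-wide rise. Of 25 tested loci 2 rose, 1 fell and 22 did not pass, with a median of 0.18, or 0.05 without 25 mM replicate 1, although 22 of 25 rose in RPM. Over all tested loci 4.78% rose and 4.90% fell in share, so that these counts are near the background. Ldha, which encodes the lactate dehydrogenase subunit that favours lactate, has 2 peaks on chromosome 7 between 46838516 and 46847151. Its shares were 19.7, 42.2 and 24.9 at 5 mM and 112.0, 52.9 and 49.8 at 25 mM (log2 change 1.22, SE 0.33, adjusted p = 0.0327 by limma). Without 25 mM replicate 1 the change was 0.85 with an adjusted p of 0.152 by limma, and the test passed in 2 of the 6 fits that left out 1 library. Aldoa, the glycolytic aldolase, had shares of 39.5, 24.3 and 24.9 at 5 mM and 50.9, 35.8 and 21.6 at 25 mM. These overlapped, and the change was 0.23 (SE 0.33, adjusted p = 0.694 by limma), while its RPM rose by 1.56 on the log2 scale. The symbol Aldoa carries more than 1 gene identifier in the files. Hk1, the hexokinase of most neurons, had shares of 434.3, 359.9 and 467.5 at 5 mM and 691.0, 523.7 and 498.6 at 25 mM and rose by 0.43 (adjusted p = 0.0484 by limma). Slc2a3, the neuronal glucose transporter, fell by 1.27 on the log2 scale (adjusted p = 0.0464 by limma), and with 1 library left out Hk1 passed in 2 of 6 fits and Slc2a3 in 1. In the glucose and energy sensing list 1 of 15 loci passed, Bnip3, a mitophagy receptor, which fell (adjusted p = 0.0483 by limma) and passed in 1 of 6 fits that left out 1 library, and the median was -0.06. None of the 12 tested loci of histone acylation enzymes passed, with a median of 0.08, and none of 17 circadian clock loci, with a median of 0.10.

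Neuronal channel, receptor and guidance families held most of the losses among the lists. The transmitter receptor list was matched by the letters of the symbol, and 4 of its 33 tested loci encode no receptor subunit, the glutaredoxins Glrx, Glrx3 and Glrx5 and the transmembrane protein Grina. Of the other 29 loci 0 rose and 8 fell by limma, with a median of -0.46. Of 45 axon guidance loci 2 rose and 8 fell, with a median of -0.42, and of 49 potassium channel loci 2 rose and 6 fell, with a median of -0.23. These counts stand beside 4.78% higher and 4.90% lower over all tested loci. With the H3K27Ac trend removed the medians of the 3 lists, all 33 loci of the first included, were -0.29, -0.22 and -0.10, and 1, 0 and 3 loci were lower by limma. Their summed shares were 0.354% to 0.369% at 5 mM and 0.315% to 0.321% at 25 mM for the transmitter receptor list, and 0.579% to 0.593% and 0.523% to 0.548% for potassium channels. The receptors that fell included Grik1 and Grm7 (-0.64), which respond to glutamate, Grin2b (-0.93), an NMDA receptor subunit, Gabrb2 (-1.45) and Gabrg3 (-0.86), subunits of the GABA receptor, and Glra1 (-1.11), a glycine receptor. Grina rose by 1.86. The guidance loci that rose were Sema3f (0.80) and Sema7a (0.72), and those that fell included Ephb3, an ephrin receptor, Sema6a (-1.06), Sema6d (-0.98) and Plxna4 (-0.75). Leaving out 1 library at a time left 1 to 6 receptors and 0 to 8 guidance loci lower. Both numbers were lowest without 25 mM replicate 1 or 5 mM replicate 2, at 1 receptor and 0 guidance loci, and without 25 mM replicate 2 they were 2 and 2. Potassium channels gave 1 to 5 lower loci in these fits.

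The 5 strongest H3K18La loci, each with 84 to 197 peaks, all rose in RPM and differed in share. Gse1, a subunit of a histone deacetylase complex, had shares of 2590.2, 2471.0 and 2437.1 at 5 mM and 3868.1, 3501.7 and 3364.6 at 25 mM (log2 change 0.52, SE 0.05, adjusted p = 3.59e-05 by limma). Dscaml1, a cell adhesion molecule of the retina, rose by 0.73 (SE 0.06, adjusted p = 4.66e-06 by limma), from 1601.9 to 1790.0 at 5 mM to 2744.9 to 3040.4 at 25 mM. Cdh4, a cadherin, had a change of 0.08 with overlapping groups (adjusted p = 0.436 by limma), Fgfr2, a fibroblast growth factor receptor, 0.15 (adjusted p = 0.089 by limma) and Klhl29 0.24 (adjusted p = 0.0259 by limma). With the H3K27Ac trend removed the changes at Gse1 and Dscaml1 were 0.01 and 0.23 and did not pass (adjusted p = 0.94 and 0.0835 by limma), and after quantile normalization that at Gse1 was 0.12 (adjusted p = 0.129 by limma). At Cdh4, Fgfr2 and Klhl29 removing that trend turned the direction to a lower share, with the values given below under the processing.

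The change of share was also compared between the marks, in 1 fit over all 10 libraries. No locus differed between H3K18La and H3K27Ac at an adjusted p under 0.05 (limma), the smallest being 0.746, and 675 of 10374 had an unadjusted p under 0.05. With 2 H3K27Ac libraries at each glucose level this does not show that the marks respond alike. The median change of H3K27Ac share was 0.59 for rod phototransduction loci, 0.61 for photoreceptor transcription factors and 0.51 for outer segment loci, beside -0.18 over all tested loci.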

How the data were processed

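The RPKM values were made by the authors from CUT&Tag reads of mouse retinal explants: nf-core/cutandrun alignment to GRCm38, peaks called with MACS, a consensus peak set from retinal development, annotation with ChIPseeker 1.34.1 to the nearest gene, distal peaks included (32.8% of peaks), and window counting with csaw. A second deposited table holds the authors' own edgeR comparison and was not used. Peak RPKM times width in kilobases was summed by symbol, which gives reads per 1000000 (RPM). RPKM is not a count, so limma 3.58.1 in R 4.3.3 (trend, Benjamini-Hochberg) was run on log2(RPM + 0.5) or log2(share + 2), with 3 libraries per group. Log2 changes are on that scale and understate those of weak loci. RPKM steps gave whole reads for 100% of values within 0.02, which set the denominators and read numbers. Read numbers reflect counting error only, and PCR copies were not told apart.

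Loci named are the 12 highest and 12 lowest changes of share among loci of at least 10 RPM with non-overlapping groups, without gene models named Gm or Rik, the 5 strongest loci, Ldha and Aldoa, and in each of 39 gene lists the 3 strongest tested loci and the highest and lowest change. Other list members that passed the test were named after their values were seen, and some loci under these rules are not reported here. Members that encode no receptor subunit were set apart from the transmitter receptor list after the values were seen. The loci, lists and rules were chosen with earlier results of these data known. The share test was tested on simulated data for 3 against 3 libraries over 10374 loci, with a dispersion of 0.005. Of 50 loci per size it called 24 at a fold of 2, 50 at 4, 12 at 0.5 and 27 at 0.25. It called 0 unchanged loci. Between real libraries, chi-square over its degrees of freedom was 1.98 and 2.60 for 25 mM replicate 1 against replicates 2 and 3. It was 1.22 for 25 mM replicates 2 and 3, and 1.03 to 1.10 at 5 mM. Whether the simulated counts hold at the spread of the 25 mM libraries was not tested. Promoter sequences are from RefSeq. Figures were drawn with matplotlib 3.10.9.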

Additional observations from a re-analysis of the deposited data

How the results depend on the processing

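Leaving out 1 library at a time gave between 7575 and 8192 loci changed in RPM, between 267 and 963 loci changed in share, a difference of 8.73 to 9.36 percentage points for the strongest decile of loci and a library-wide ratio of 2.64 to 2.80. The count in RPM was 4423 of 4489 loci with a mean of at least 10 RPM, 3321 of 3977 with promoter peaks only, 1799 (1579 higher, 220 lower) when centred on the median locus and 603 (309 higher, 294 lower) after quantile normalization, the last 2 of which remove the library-wide rise by construction. The count in share was 202 (154 higher, 48 lower) at an adjusted p of 0.01, 1510 when centred on the median locus, 524 (271 higher, 253 lower) after quantile normalization, 72 with promoter peaks only and 148 with the H3K27Ac trend removed. Without a filter on low loci it was 0 of 25400 by limma, with 4698 at an unadjusted p under 0.05. With voom on recovered reads 555 were higher and 917 lower, and with loci of at least 10 RPM 633 and 312. With the H3K27Ac trend removed the direction turned at Cdh4 (-0.36, adjusted p = 0.0395 by limma), Fgfr2 (-0.34, adjusted p = 0.0164 by limma) and Klhl29 (-0.18, adjusted p = 0.221 by limma). With a replicate block the counts were 8384 in RPM, 967 in share (530 higher, 437 lower) and 0 for the difference between the marks, while deviations of same-numbered libraries correlated by 0.076, 0.019 and 0.030 and 5 mM replicate 2 was most like 25 mM replicate 3. Over 31 named loci and 23 alternatives, wherever a locus passed the filter, 580 results kept direction and side of the threshold, 103 no longer passed, 6 passed newly and 3 turned. For the other shifts the cause was not tested. Depth limits weak loci: 1 read is worth 0.193 to 0.736 RPM in the 5 mM libraries.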

Other observations

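Stress and signalling lists that the account above leaves aside were also measured. Injury-response loci had a median change of share of 0.49 with 3 of 8 tested loci higher, beside 4.78% over all tested loci: Bcl3, a nuclear cofactor of NF-kB (log2 change 1.13), Fgf2, a growth factor that photoreceptors and glia raise under stress (0.61), and Edn2, an endothelin of stressed photoreceptors (0.59). Without 25 mM replicate 1 the injury median was 0.28 with 1 locus higher, without 25 mM replicate 2 also 1 was higher, and over all 13 loci of the list with a peak, weak ones included, the median was 0.02. Immediate early loci had a median of 0.34 with Fos (0.95) and Btg2 (0.73) higher of 15, and without 25 mM replicate 1 the median was 0.02 with 0 higher. Fos had shares of 157.9, 107.0 and 99.7 at 5 mM and 375.3, 207.0 and 159.0 at 25 mM. Interferon response loci had a median of 0.57 with 0 of 7 passing, 6 of which were under 3 RPM at 5 mM, and endoplasmic reticulum stress loci 0.20 with 0 of 7.

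Housekeeping complexes had few tested loci, and their medians depended on the libraries and on the filter. Their counts of called loci, at most 1 per list, are near the 4.78% higher and 4.90% lower over all tested loci. Respiratory chain loci had a median of 0.13 with Ndufv1 (0.95) higher of 16, or 0.02 over all 68 with a peak. Cytosolic ribosomal protein loci had a median of 0.01 with 0 of 15 passing, from -0.23 to 0.30 with 1 library left out. Mitochondrial ribosomal protein loci had a median of 0.13 with Mrps27 (0.65) higher of 12, or -0.30 over all 64 with a peak. All 5 tested proteasome loci were under 3 RPM at 5 mM and 0 passed, the median over all 33 with a peak was -0.23, and the list held 0.0266% to 0.033% of reads in peaks at 5 mM and 0.0198% to 0.0239% at 25 mM.

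Progenitor and Notch loci had a median of 0.02 among 6 tested, from -0.24 to 0.28 with 1 library left out, and -0.17 over all 13 with a peak. Ccnd1, the D-type cyclin of retinal progenitors, was lower by 0.81 on the log2 scale and passed in 2 of 6 fits that left out 1 library. Zinc finger Zfp loci had a median of -0.13 with 2 higher and 1 lower of 76. Over all tested loci the median was -0.11, with 4.78% higher and 4.90% lower. Other families had few tested loci, of which 0 passed by limma, 4 of replication histones, 9 of keratins, 2 of clustered protocadherins and 3 of olfactory receptors. Over all their loci with a peak the medians were 0.14, -0.16, 0.03 and -0.45, and olfactory receptors held 0.0436% to 0.0533% of reads in peaks at 5 mM and 0.0265% to 0.0357% at 25 mM. No locus of the Hox (5), vomeronasal receptor (19) or defensin (4) families reached the minimum level, and these families held at most 0.0131% of reads in peaks in any library.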
